A study of Mus musculus with 12 samples.

Results

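The pre-mRNA splicing factor families were examined in RAW264.7 cells, an established mouse macrophage line. The genes were taken by name from an Agilent 1-colour expression array: those named Prpf followed by a digit, Sf3a or Sf3b followed by a digit, Srsf or its older form Sfrs followed by a digit, Snrp, or Hnrnp. This gave 63 genes and 110 probes of 34797 gene names and 55681 probes. A gene entered the tests if 1 or more of its probes exceeded background in every array of some group, which left 61 of the 63 and 17596 genes in all. The 61 were 18 of 18 Hnrnp, 13 of 13 Prpf, 8 of 8 Sf3, 11 of 12 Snrp and 11 of 12 Srsf genes. Snrpn, a tissue-restricted Sm protein, and Srsf12 were not well above background on any array. A gene was represented by its brightest passing probe, and 60 of the 61 representing probes were above background on all 12 arrays. The rules on name and detection used no difference between groups, but the genes were chosen with earlier results of these data known.

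The 12 arrays formed 4 groups of 3. Control cells received neither agent, a group called FABP4 received 200 nM recombinant FABP4 (aP2, a lipid chaperone made by adipocytes and macrophages), the palmitic acid group received 0.2 mM palmitic acid, and the last group received both at those doses. Incubation lasted 24 h in all groups, in medium with 0.5% fatty acid-free bovine serum albumin, and the cells had been grown with 10% foetal bovine serum. RAW264.7 is 1 virally transformed line, no label says that a group's 3 arrays were separate cultures, and the p-values reflect only array-to-array spread, which may be technical. The design asks how the saturated fatty acid, the chaperone and their combination alter macrophage transcripts.

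All introns of the spliceosomal type are removed by small nuclear ribonucleoproteins (snRNPs), each an RNA with its proteins, that assemble stepwise on the transcript. The Snrp genes encode the Sm proteins that form a ring on most of these RNAs, and proteins of the U1 and U2 particles; the Sf3a and Sf3b proteins are parts of U2 that bind around the branch point. Many Prpf proteins belong to the U5 and U4/U6·U5 particles or accompany spliceosome activation, and SR proteins (Srsf) and hnRNPs bind the transcript itself and shift the choice of splice sites. In macrophages, regulated splicing and intron retention are known to shape inflammatory transcripts.

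Array values below are log2 intensities relative to each array's 75th percentile, so that 0 is the 75th percentile of all non-control spots; differences are log2 fold changes ± standard error (SE) from a limma model over all 12 arrays. A gene is said to have risen or fallen when the p-value, adjusted over the 17596 genes by the Benjamini-Hochberg method, was under 0.05. Between 42.8% and 46.7% of spots per array were well above background and 0 were saturated. The number of arrays limits the precision. All 3 control arrays and FABP4 array 1 lay on the first slide and the other 8 on the second. Palmitic acid without FABP4 was thus compared wholly across slides and FABP4 with palmitic acid wholly within the second. FABP4 arrays 2 and 3 and palmitic acid arrays 1 and 2 lay in row 1 of their slide, and all others in row 2. On the second slide the median over tested genes was 0.97 to 0.98 in row 1 and 1.00 to 1.01 in row 2. The part of row in the differences was not tested. Of 10 macrophage markers, 10 were above background on all arrays, while 4 of 5 adipocyte markers (Adipoq, Plin1, Cfd and Lep) were above it on none. Of 5 fibroblast markers Col1a1 and Pdgfra were above background on none, Dcn and Col3a1 on at most 1 array, and Col1a2 on all 12; its level was 0.15 to 0.20 times the 75th percentile in controls, 0.10 to 0.16 with FABP4, 0.20 to 0.23 with palmitic acid and 0.18 to 0.21 with both, and its part in the differences was not tested. Of 5 osteoclast markers, 3 were above background on all arrays and Calcr on none. The 4 that entered the tests were those 3 and Mmp9, which was above background on 11 arrays. The summed level of these 4 was 12.3 to 12.6 times the 75th percentile in controls, 12.1 to 13.2 with FABP4, 13.6 to 16.2 with palmitic acid and 15.9 to 16.4 with both. Its part in the palmitic acid differences was not tested. Plin2 and Cpt1a, targets of fatty acid signalling, rose with palmitic acid in the absence of FABP4 by 1.42 ± 0.06 (adjusted p = 1.63e-06) and 1.37 ± 0.06 (adjusted p = 1.59e-06).

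Prpf38b, Prpf40b and Srsf11, whose probes differed among themselves, are shown by sequence, because their values depend on which probe is read. The cause of the probe differences was not tested. Each line gives the first 30 bases of a 60-base probe, as deposited, in lower case throughout; mm9 positions of the whole probe follow. The Prpf38b probes lie on the minus strand of chr3:108708070-108708129 (brighter) and chr3:108706204-108706263 (dimmer). Those of Prpf40b lie on the plus strand of chr15:99147197-99147256 (brighter) and chr15:99145952-99146011 (dimmer), and those of Srsf11 on the minus strand of chr3:157675744-157675803 (brighter) and chr3:157689536-157689595 (dimmer).
Prpf38b brighter probe: aacattgatcagcagattaaaactcgacct
Prpf38b dimmer probe: aagaggtttaaattaggcttagatttgatc
Prpf40b brighter probe: ccagaccagagatgggcagtctataccacg
Prpf40b dimmer probe: tggcagaaagggcaagaaacaccatcgcaa
Srsf11 brighter probe: atcccctaaaaagcccaggtctcctaaaag
Srsf11 dimmer probe: ccaagtattactttgaaacccttgttatac

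The promoters of Prpf38b and Snrpd3, the genes that fell with palmitic acid (below), are shown as the 250 bases before the RefSeq transcript start (build GRCm38.p6), with matches to the motifs searched in capitals. Prpf38b is at chr3:108911730-108911979 on the minus strand and Snrpd3 at chr10:75517792-75518041 on the plus strand.
Prpf38b promoter: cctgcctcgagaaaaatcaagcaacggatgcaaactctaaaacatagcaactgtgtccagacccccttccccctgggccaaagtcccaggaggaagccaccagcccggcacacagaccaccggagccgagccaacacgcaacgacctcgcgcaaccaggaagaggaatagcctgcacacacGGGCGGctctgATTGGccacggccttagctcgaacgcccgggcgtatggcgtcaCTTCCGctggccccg
Snrpd3 promoter: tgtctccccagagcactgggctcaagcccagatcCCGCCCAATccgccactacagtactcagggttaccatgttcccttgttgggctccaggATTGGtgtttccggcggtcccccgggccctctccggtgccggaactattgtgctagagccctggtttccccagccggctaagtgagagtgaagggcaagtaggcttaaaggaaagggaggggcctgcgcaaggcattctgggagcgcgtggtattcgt
The motifs, sought on both strands, were the GC box (GGGCGG), the CCAAT box (CCAAT), the ETS core (CGGAAG), the YY1 core (AAGATGGC), the E-box (CACGTG), the CRE core (TGACGT), the NRF1 core (GCATGCGC) and the TATA box (TATAAA). The Prpf38b window held 1 GC box, 1 CCAAT box and 1 ETS core, and the Snrpd3 window 1 GC box and 2 CCAAT boxes, 1 of which overlaps the GC box. RefSeq windows were found for 53 of the 61 genes, 70 windows in all. The ETS core was in 50% of these 70 windows and in 13.59% of the 32851 windows of all 27025 RefSeq genes. That wider set, used for each motif here, was not limited to genes above background on these arrays, and the part of this was not tested. A GC box was in 64.29% against 32.74%, a CCAAT box in 48.57% against 33.85%, a CRE core in 17.14% against 6.47% and an E-box in 11.43% against 6.02%. The NRF1 core was in 4.29% against 2.26% and the YY1 core in 1.43% against 1.56%, whereas the TATA box was in 7.14% against 12.37%. The members' windows were also richer in G and C, with a median of 60% against 52.4%, and had a median of 20.5 CpG dinucleotides against 6. Several of these motifs contain CpG, and base composition moves with their frequency; its part was not tested.

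Prpf38b stood out in the families. It encodes an SR-rich relative of the spliceosomal protein Prpf38a. Its brighter probe read 2.10, 1.87 and 2.00 on the control arrays and 1.45, 1.37 and 1.48 on the FABP4 arrays. It read 1.70, 1.61 and 1.72 with palmitic acid and 1.58, 1.72 and 1.64 with both agents. The controls were highest without overlap: the lowest control, 1.87, lay 0.15 above the highest of the other 9 arrays, and the FABP4 arrays were the lowest 3 of the 12.

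With FABP4 in the absence of palmitic acid, Prpf38b fell by 0.56 ± 0.07 on the log2 scale, to 0.678 of the control level (95% confidence interval of the difference -0.71 to -0.41, limma adjusted p = 0.0473). It was the only one of the 61 genes to pass, and 0 rose. In the whole comparison 0.017% of genes passed, 3 of 17596 (0.0114% higher and 0.00568% lower), and Prpf38b was the only one of the 3 that was lower. On the first slide, FABP4 array 1 differed by -0.54 from the mean of the 3 controls beside it; the second slide held no control. A fit with slide as a block rests on that same array and gave the same difference, -0.54 ± 0.10, with adjusted p = 0.0542. The call ended when any control array or FABP4 array 2 or 3 was left out (adjusted p from 0.106 to 0.221) and held without FABP4 array 1 (adjusted p = 0.0297), with a negative difference each time. Within the second slide, the palmitic acid arrays averaged 0.25 and the arrays with both agents 0.22 above FABP4 arrays 2 and 3.

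The dimmer Prpf38b probe did not follow in every group. It read 0.94, 0.77 and 0.79 in controls, 0.51, 0.70 and 0.67 with FABP4, 0.88, 0.70 and 0.91 with palmitic acid and 0.71, 0.63 and 0.53 with both. Its difference with FABP4 alone was -0.21 (unadjusted p = 0.0295), less than that of the brighter probe and of the same sign. With palmitic acid alone the dimmer probe differed by -0.0041 (unadjusted p = 0.961), where the brighter probe differed by -0.31. With both agents against palmitic acid alone it differed by -0.21 (unadjusted p = 0.0303), and the brighter probe by -0.03 (unadjusted p = 0.656). When the passing probes of each gene were averaged, Prpf38b differed by -0.38 with FABP4 (adjusted p = 0.294).

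**Figure D1:**
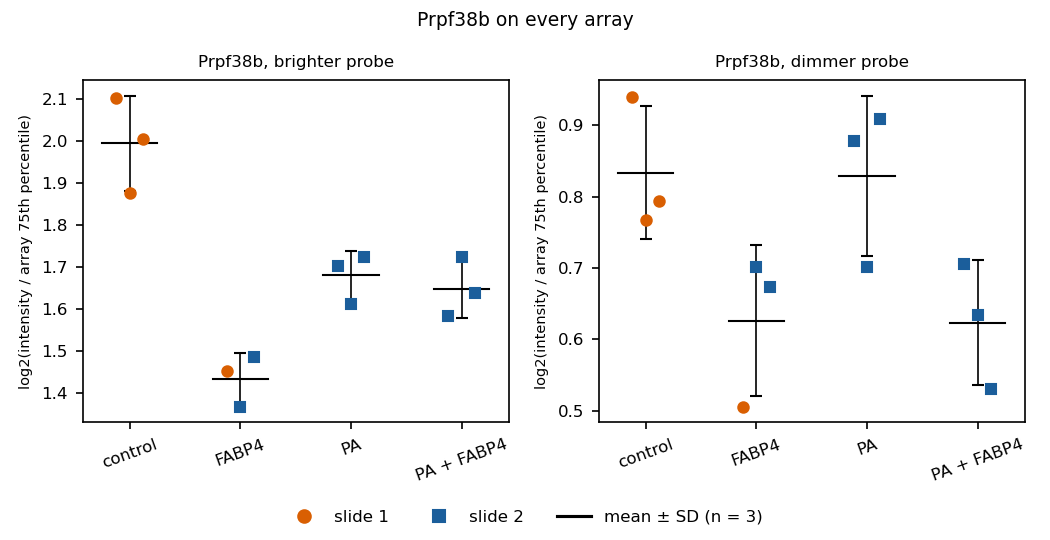
Prpf38b on each array, by group, as log2 intensity relative to the array's 75th percentile (y axis), for the brighter and the dimmer probe; points are arrays, marked by slide, and bars are group means ± SD (n = 3); PA is palmitic acid. The brighter probe runs from 1.87 to 2.10 in controls and from 1.37 to 1.48 with FABP4, and the dimmer probe's palmitic acid arrays overlap its controls.

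With palmitic acid in the absence of FABP4, 2 of the 61 genes fell and 0 rose, while 8.61% of all genes passed (4.88% higher and 3.73% lower). The 2 were Prpf38b, at -0.31 ± 0.07 (limma adjusted p = 0.0204), and Snrpd3, an Sm ring protein, at -0.28 ± 0.08 (adjusted p = 0.0455). Most of the families lay slightly below 0: 49 of 61 genes had a negative difference, 80.3% against 49.9% of all genes, with a median of -0.08 against 0.0005. At an unadjusted p under 0.05 there were 12 of 61, against 26.5% of all genes. By family, 10 of 13 Prpf, 4 of 8 Sf3, 9 of 11 Srsf, 10 of 11 Snrp and 16 of 18 Hnrnp genes were below 0; without scaling between arrays the signs turned, with medians of 0.10 over the 61 and 0.17 over all genes. With slide as a block, the median of the 61 was 0.05 against 0.04 over all genes, and 16 were below 0 (7408 of 17596 over all genes). In that fit the only group spanning both slides was FABP4, with 1 array on the first; 1 of the 61 passed (Prpf19, described with FABP4 below), against 0.784% of all genes.

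Snrpd3 read 4.83, 4.65 and 4.75 in controls and 4.36, 4.56 and 4.46 with palmitic acid. It read 4.74, 4.56 and 4.67 with FABP4 and 4.49, 4.65 and 4.55 with both agents. The palmitic acid arrays lay below the controls without overlap, and the other groups lay between or among them. The difference was -0.16 ± 0.13 (adjusted p = 0.623) with slide as a block, and that of Prpf38b was then -0.29 ± 0.12 (adjusted p = 0.319). Leaving out control array 1 or 3 or palmitic acid array 2 ended both calls, at adjusted p of 0.0751, 0.0675 and 0.0773 for Prpf38b and 0.146, 0.121 and 0.0569 for Snrpd3. Without scaling between arrays Prpf38b differed by -0.14 (adjusted p = 0.301) and Snrpd3 by -0.11 (adjusted p = 0.443), and the Snrpd3 call was lost with arrays scaled to the median of tested genes (adjusted p = 0.0519). The Snrpd3 call also ended without FABP4 array 3, palmitic acid array 1 or palmitic acid array 3, at adjusted p of 0.0582, 0.12 and 0.0984.

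Groups did not overlap for 18 genes lower with palmitic acid (16.4% of all genes) and 2 higher (17.5% of all genes). Srsf9, an SR protein that binds exons, read 4.39, 4.38 and 4.35 in controls and 4.21, 4.11 and 4.23 with palmitic acid, a difference of -0.19 ± 0.06 that did not pass (adjusted p = 0.0631). On FABP4 array 1, on the controls' slide, it read 4.35, and on FABP4 arrays 2 and 3 it read 4.21 and 4.18. With slide as a block, a term that rests on FABP4 array 1, its difference was -0.03. Srsf9 passed at -0.18 (adjusted p = 0.039) when arrays were scaled to the 75th percentile over probes above background on all arrays.

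Hnrnpul1, an hnRNP U-like RNA binding protein, read 1.77, 1.86 and 1.95 in controls and 1.58, 1.60 and 1.53 with palmitic acid. The difference was -0.29 ± 0.09 (adjusted p = 0.0661). Its second probe, at chr7:26521707-26521766 (mm9, minus strand), had the same direction, -0.32 (unadjusted p = 0.00302). FABP4 array 1 read 1.81 on the brighter probe, among the controls, and FABP4 arrays 2 and 3 read 1.49 and 1.72.

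Srsf11, an SR protein, had the lowest estimate, -0.51 ± 0.17 (adjusted p = 0.0875). Its brighter probe read 4.43, 4.04 and 4.19 in controls and 3.66, 3.63 and 3.84 with palmitic acid. FABP4 array 1 read 4.32 and FABP4 arrays 2 and 3 read 3.67 and 3.69, so the 4 arrays of the first slide were the highest. The difference was 0.13 ± 0.19 with slide as a block, and the dimmer probe, at -1.67, -1.64 and -1.60 in controls and -1.41, -1.40 and -1.57 with palmitic acid, was higher and not lower (0.17, unadjusted p = 0.121).

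Several core components had palmitic acid arrays below every control without passing the test. Prpf8, the U5 scaffold next to the catalytic centre, read 7.06, 7.05 and 7.07 in controls and 6.97, 6.89 and 7.03 with palmitic acid, -0.10 ± 0.05 (adjusted p = 0.235). Sf3a3, a U2 subunit, differed by -0.14 ± 0.05 (unadjusted p = 0.0222, adjusted p = 0.121). Snrpd1, an Sm protein, differed by -0.14 ± 0.06 (unadjusted p = 0.0307, adjusted p = 0.143). Other members went the other way. Prpf38a read 4.15, 4.29 and 4.29 in controls and 4.41, 4.31 and 4.33 with palmitic acid. Srsf3 read 5.09, 5.11 and 5.12 in controls and 5.21, 5.13 and 5.19 with palmitic acid. For both genes the palmitic acid arrays lay above every control. Of the 8 Sf3 genes 4 were above 0, among them Sf3b4, which averaged 5.98 in controls and 6.09 with palmitic acid. For 59 of the 61 genes the 95% interval of the palmitic acid difference lay within 0.5 of 0 on the log2 scale, against 71.9% of all genes, so that larger differences in either direction lay outside the interval for those genes. The exceptions were Srsf11 (-0.88 to -0.14) and Sf3b1 (-0.80 to 0.32), the U2 subunit that grips the branch point, whose probe was dim at -3.01, -3.02 and -2.97 in controls. All these intervals come from the fit without a slide term, so they bound the differences of palmitic acid and slide together.

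**Figure D2:**
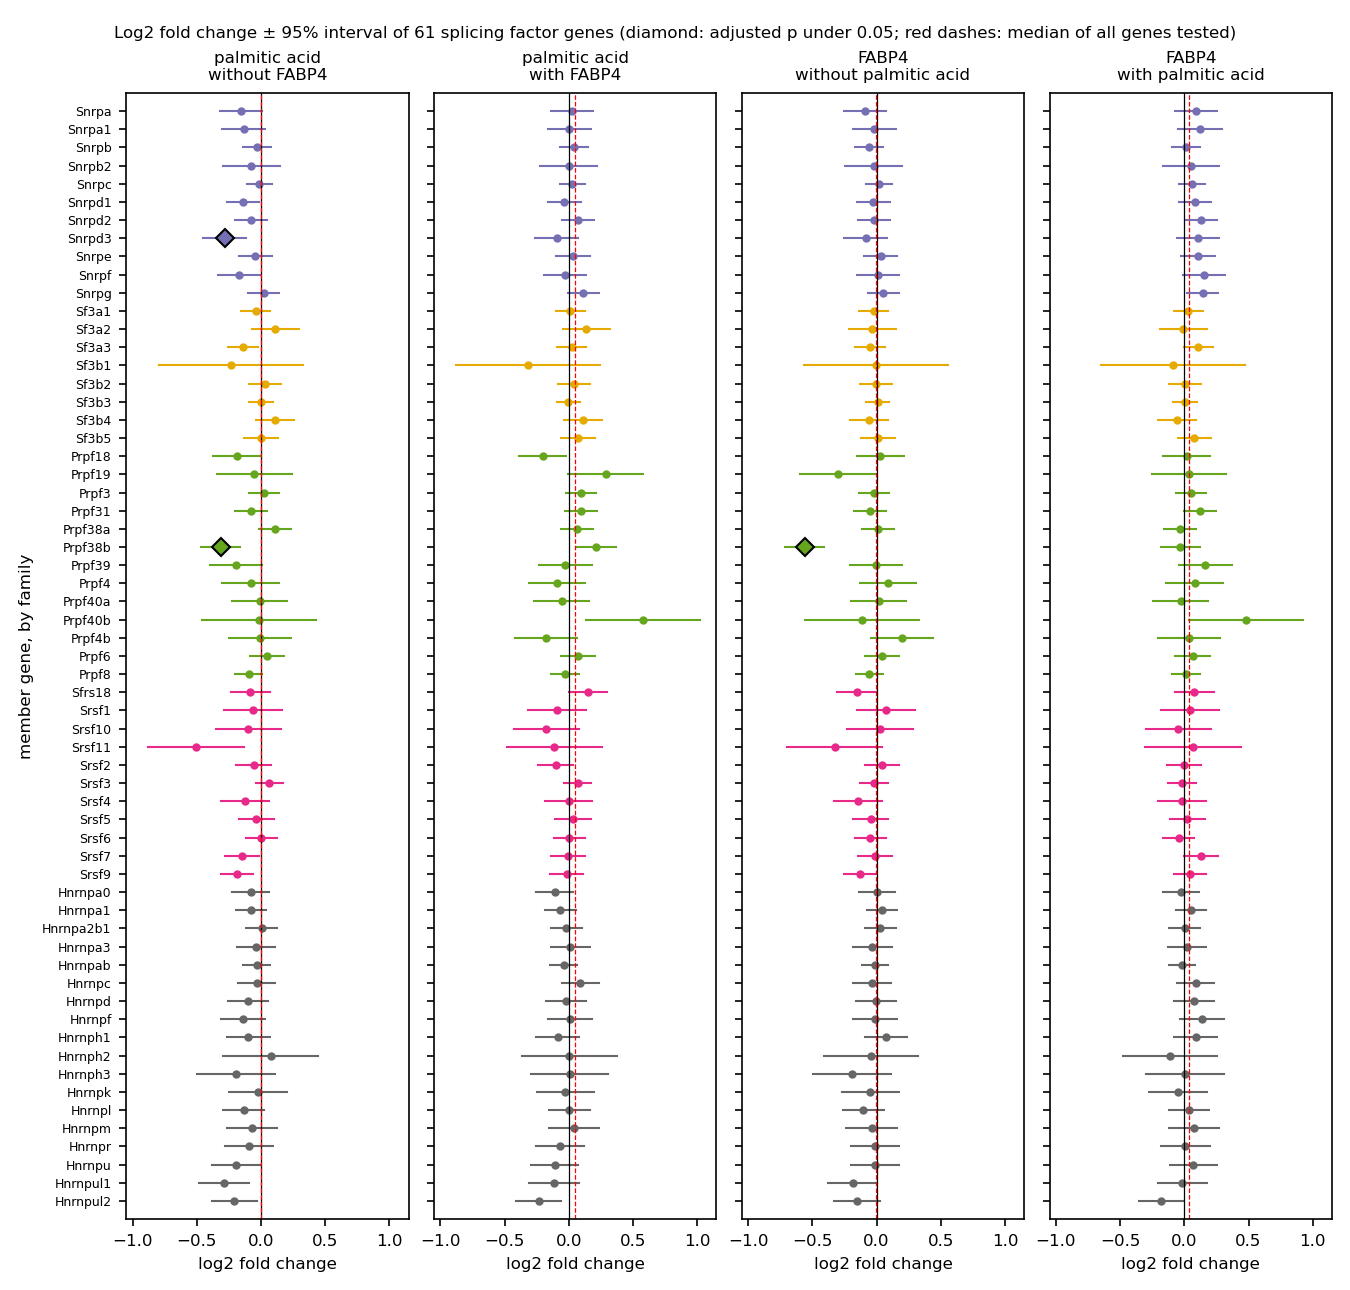
Log2 fold change (x axis) of each of the 61 genes (rows, by family) for palmitic acid and for FABP4, each without and with the other agent; points are limma estimates and bars their 95% confidence intervals. Most intervals include 0, diamonds mark genes with adjusted p under 0.05 and red dashes the median of all genes tested; Prpf38b lies at -0.56 with FABP4 alone and at -0.31 with palmitic acid alone.

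With FABP4 present, palmitic acid changed 0 of the 61 genes, against 3.81% of all genes (2.86% higher), and 4 were under an unadjusted p of 0.05 by limma (20.9% of all genes). On its brighter probe Prpf38b was higher with both agents than with FABP4 alone, 0.21 ± 0.07 (adjusted p = 0.117), the reverse of that probe's sign without FABP4. On the dimmer probe these groups overlapped, at 0.51, 0.70 and 0.67 with FABP4 and 0.71, 0.63 and 0.53 with both. Hnrnpul2, an hnRNP U-like protein, differed by -0.23 ± 0.08 (adjusted p = 0.14) and Prpf18, a second-step factor, by -0.20 ± 0.08 (adjusted p = 0.204). The median over the 61 was 0.004 against 0.05 over all genes, and 30 were below 0 (36.7% of all genes). With slide as a block 0 passed, against 3.35% of all genes. The 95% interval lay within 0.5 of 0 for 58 genes (76% of all genes). Groups did not overlap for 5 higher (19.3% of all genes) and 2 lower genes (6.96%).

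Prpf40b, a relative of a U1-associated yeast protein, had the largest estimate in this comparison, 0.58 ± 0.20 (adjusted p = 0.146). Its brighter probe read -0.60, 0.15 and 0.42 with both agents, and between -0.68 and -0.43 on the other 9 arrays. The estimate came from 2 of the 3 arrays, since the first array of the group lay among the rest. Without that array Prpf40b passed at 0.87 (adjusted p = 0.00334). The dimmer probe read -0.80, -0.86 and -1.15 with both agents and -0.33, -0.96 and -1.01 with FABP4, a difference of -0.17 (unadjusted p = 0.33), opposite to the brighter probe. Leaving out palmitic acid with FABP4 array 3, in turn, made Sf3b1 pass as lower, which read -3.82, -3.54 and -2.61 in that group. The Sf3b1 probe was the only representing probe not above background on every array. It was above background on 10 arrays, and the part of near-background signal in this call was not tested.

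FABP4 with palmitic acid present, compared within the second slide, changed 0 of the 61 genes and 0% of all genes by limma; 4 of the 61, against 5.88% of all genes, were under an unadjusted p of 0.05. All 11 Snrp genes were above 0, with a median of 0.11, where the 61 genes had a median of 0.04 and all genes 0.03, with 35.1% of all genes below 0; without scaling between arrays 2 of the 11 were above 0, with a median of -0.02 against -0.09 over all genes. Prpf40b had the largest estimate, 0.48 ± 0.20 (unadjusted p = 0.0369, adjusted p = 0.806), from the same 2 arrays as above. Snrpg, an Sm ring protein, read 6.40, 6.53 and 6.54 with palmitic acid and 6.60, 6.65 and 6.65 with both, 0.14 ± 0.05 (adjusted p = 0.806). Snrpd2, another protein of the ring, read 6.07, 6.07 and 6.20 against 6.25, 6.23 and 6.24, 0.13 ± 0.06 (adjusted p = 0.806). For both genes the arrays with both agents lay above all 3 palmitic acid arrays. The 95% interval of the difference reached from 0.02 to 0.26 for Snrpg and from 0.0035 to 0.26 for Snrpd2. Palmitic acid array 3, in the same row of the slide as the arrays with both agents, read highest of its group for both genes. Ribosomal protein genes had the same tilt in this comparison, 87 of 92 above 0 with a median of 0.10, as did proteasome genes, 45 of 48 with a median of 0.06. Over the 61, groups did not overlap for 7 higher (11.4% of all genes) and 1 lower (3.1%), the last being Hnrnpul2 at -0.18 ± 0.08 (adjusted p = 0.806), and the 95% interval lay within 0.5 of 0 for 59 (81.6%).

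The interaction term, which tests whether the palmitic acid difference depends on FABP4, passed for 0 of the 61 genes and 0% of all genes by limma; 2 of the 61 and 6.92% of all genes were under an unadjusted p of 0.05. Of the 61 estimates 16 were below 0 (37.5% of all genes), with a median of 0.07 against 0.04 over all genes. With slide as a block 35 were below 0 (8176 of 17596 over all genes), with a median of -0.02 against 0.01 over all genes. In the fit without a slide block the interval lay within 0.5 of 0 for 53 (66.8%). The 2 were Prpf38b, at 0.53 ± 0.10 (unadjusted p = 0.000242, adjusted p = 0.426), and Sfrs18, the SR-related gene now called Pnisr, at 0.23 ± 0.10 (adjusted p = 0.708). The Prpf38b estimate, from the brighter probe, says that the lowering by the agents together was smaller than the sum of the separate differences. On the dimmer probe the FABP4 difference was nearly the same without and with palmitic acid. The adjusted p of the Prpf38b interaction ranged from 0.145 to 0.867 over the alternatives tried.

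With FABP4 alone, the median over the 61 was -0.02 against -0.0077 over all genes, 42 of 61 were below 0 (53.6% of all genes) and 4 were under an unadjusted p of 0.05 (7.23% of all genes), and groups did not overlap for 5 lower (6.42% of all genes) and 0 higher (4.01%). A slide block turned this, to 18 of 61 below 0 (7569 of 17596 over all genes) and a median of 0.08 against 0.02 over all genes. The interval lay within 0.5 of 0 for 56 of the 61 (79.8% of all genes). Srsf11 had the lowest estimate after Prpf38b, -0.33 ± 0.17 (adjusted p = 0.739). Besides Prpf38b the 5 lower genes were Prpf19, Prpf40b, Prpf8 and Sfrs18. Prpf19, a ubiquitin ligase that acts in spliceosome activation, is read by 10 spots on each array. It read 1.29, 1.28 and 1.38 in controls and 0.64, 1.25 and 1.16 with FABP4. It was between 1.20 and 1.38 on the other 6 arrays, so that FABP4 array 1 alone was low, on all of its spots (0.44 to 0.76, median 0.67). The difference was -0.30 ± 0.13 (adjusted p = 0.678), but -0.68 ± 0.08 (adjusted p = 0.00892) with slide as a block, where it rests on that 1 array; 0.585% of all genes passed in that fit, and Prpf19 was the only one of the 61. The interaction with slide as a block likewise passed for Prpf19 alone (0.71 ± 0.10, adjusted p = 0.0312), against 0.21% of all genes.

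**Figure D3:**
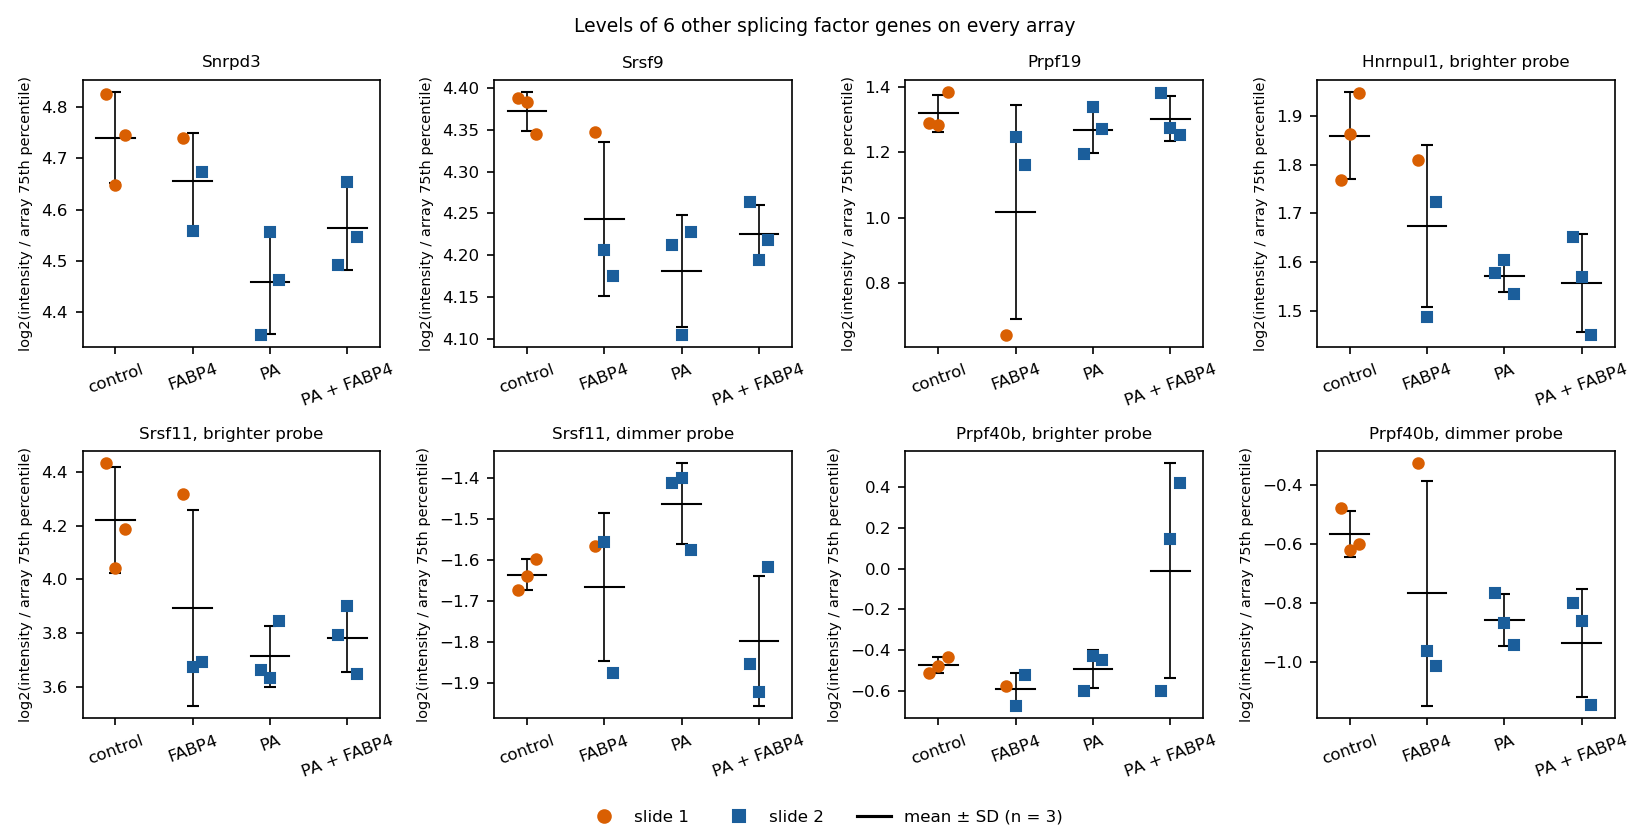
Snrpd3, Srsf9, Prpf19, Hnrnpul1, Srsf11 and Prpf40b on each array, by group, as log2 intensity relative to the array's 75th percentile (y axis); points are arrays, marked by slide, and bars are group means ± SD (n = 3); PA is palmitic acid, and Srsf11 and Prpf40b have a panel for each of their probes. FABP4 array 1 stands alone in Prpf19 at 0.64, sits with the controls in Srsf11 at 4.32, and 2 of 3 arrays with both agents are high in Prpf40b.

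FABP4 array 1, on the controls' slide, read high for many of these genes. Of the 61, 36 read above all 3 controls on it (59% against 36.4% of all genes) and 9 below (14.8% against 25%), with a median difference of 0.08 against 0.02 from their mean. The median over the 61 genes was 4.26, 4.11 and 4.19 on the control arrays and 4.32 on FABP4 array 1, against 4.06 to 4.18 on the 8 arrays of the second slide. Control and palmitic acid arrays share no slide, so slide and palmitic acid cannot be told apart in that comparison.

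**Figure D4:**
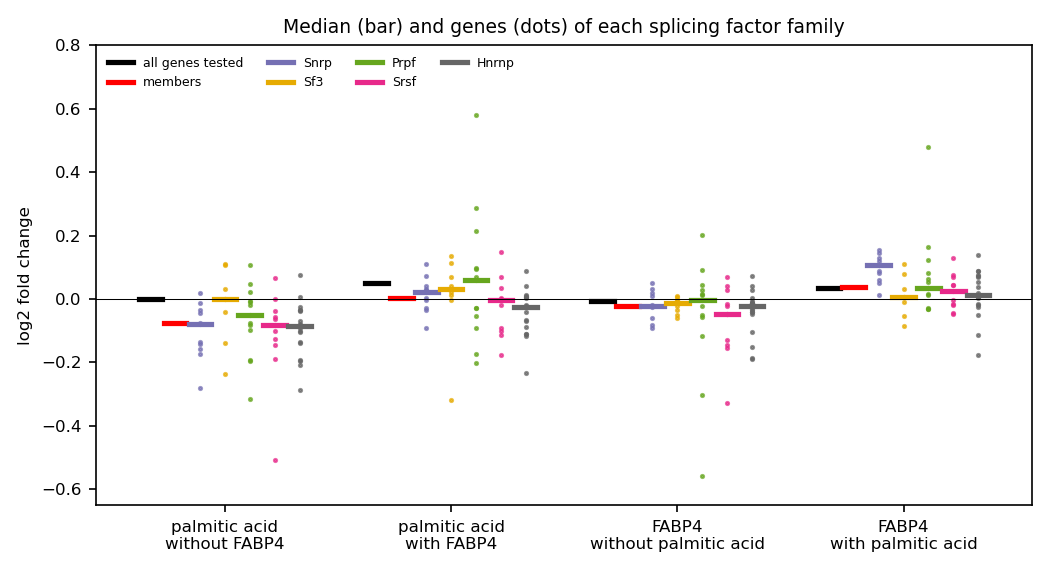
Log2 fold change (y axis) in each comparison (x axis) for the genes of each family (dots) with the family's median (bar), beside the medians of all 61 genes and of all genes tested. For palmitic acid without FABP4 the median of the 61 lies at -0.08 and that of all genes at 0.0005, and for FABP4 with palmitic acid the Snrp median lies at 0.11.

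Different probes of a gene could differ in sign. Of the 61 genes, 30 had more than 1 passing probe, 40 further probes in all. For palmitic acid without FABP4, 29 of the 40 had the sign of the representing probe; the number was 23 for palmitic acid with FABP4, 18 for FABP4 alone, and 22 for FABP4 with palmitic acid. Over all genes with several passing probes the shares with the same sign were 65.6%, 66.6%, 58% and 58.4%. Opposite signs at an unadjusted p under 0.05 were found for 1, 3, 1 and 1 of the 40 probes, all of which follow, and over all genes for 5.13%, 3.31%, 2.57% and 2.03%. For Srsf3, the smallest SR protein, the representing probe differed by 0.07 with palmitic acid alone and 0.07 with FABP4 present, and the probe at chr17:29180193-29180252 (mm9, plus strand) by -0.30 (unadjusted p = 0.0472) and -0.39 (unadjusted p = 0.0158). Hnrnpa1, an abundant hnRNP that represses splice sites, differed with FABP4 alone by 0.04 on its representing probe and by -0.21 (unadjusted p = 0.00395) on another. For Srsf11 with palmitic acid, FABP4 differed by 0.07 on the brighter and -0.34 (unadjusted p = 0.00839) on the dimmer probe. The same held for Sfrs18 (-0.33, unadjusted p = 0.0347) and Hnrnpa3 (-0.17, unadjusted p = 0.0467) with palmitic acid in the presence of FABP4, each with a positive estimate on its representing probe.

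Outside the named families, 152 other splicing genes were on a list of assembly factors, Lsm proteins, helicases, exon junction proteins and regulators, and all 152 were tested. With palmitic acid alone 1 rose and 5 fell of 152, against 8.61% of all genes called. Of the 152, 103 were below 0 (49.9% of all genes), with a median of -0.05. With slide as a block 44 were below 0 (7408 of 17596 over all genes), with a median of 0.07 against 0.04 over all genes. In that fit 0 of the 152 passed, against 0.784% of all genes. Magohb, an exon junction core protein, read 4.39, 4.41 and 4.40 in controls and 4.03, 4.05 and 4.06 with palmitic acid, -0.35 ± 0.05 (adjusted p = 0.00351). It also fell in the presence of FABP4, by 0.26 ± 0.05 on the log2 scale (adjusted p = 0.0192). Magohb was the only one of the 152 to pass there, against 3.81% of all genes (0.943% lower). It read 4.46, 4.31 and 4.31 with FABP4 and 4.09, 4.12 and 4.11 with both. Both differences stayed negative with slide as a block, at -0.20 ± 0.06 (adjusted p = 0.172) and -0.20 ± 0.04 (adjusted p = 0.0255).

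Mbnl1, a muscleblind regulator of alternative exons, fell by 0.27 ± 0.05 on the log2 scale (adjusted p = 0.0079), Gemin4 of the SMN complex, which loads Sm rings, by 0.32 ± 0.07 (adjusted p = 0.0244), and Lsm3 of the U6 ring by 0.20 ± 0.05 (adjusted p = 0.0402). Htatsf1, a U2-associated factor singled out after its values were seen, fell by 0.46 ± 0.12 (adjusted p = 0.0463). Nova1, a regulator best known from neurons, was the gene that rose, by 0.87 ± 0.16 (adjusted p = 0.0108), from a dim -1.93, -1.51 and -1.58 in controls to -0.97, -0.69 and -0.75. A slide block left every one of these 5 signs as it was, with larger errors and adjusted p from 0.285 to 0.727: Mbnl1 was -0.19 ± 0.07, Gemin4 -0.26 ± 0.13, Lsm3 -0.13 ± 0.09, Htatsf1 -0.19 ± 0.21 and Nova1 0.47 ± 0.26. The 7 snRNP proteins named Snrnp, among the 152, had 0 calls in any comparison by limma. Over all genes 8.61% passed for palmitic acid without FABP4 and 3.81% with it. Under an unadjusted p of 0.05 there was 1 of 7 for palmitic acid with FABP4 (20.9% of all genes), for FABP4 without palmitic acid (7.23%) and for the interaction (6.92%). There were 0 for palmitic acid without FABP4 (26.5% of all genes) and for FABP4 with palmitic acid (5.88%). None of the 152 passed for FABP4 without or with palmitic acid by limma, where 0.017% and 0% of all genes passed. At an unadjusted p under 0.05 there were 8 and 7 of the 152, against 7.23% and 5.88% of all genes.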

How the data were processed

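Cy3-labelled RNA of 12 samples (50 ng each) was read on Agilent mouse arrays in 1 colour, and spot intensities were deposited as the processed signal of Agilent Feature Extraction 10.7.3.1 with mm9 probe positions, per the file headers. The processed intensity was background-subtracted and detrended within each array by that software, per the file headers. The authors' deposited value table held the same linear intensities, not centred or scaled between arrays: 99.59% of its values were within 0.1% of the processed signal, and its column medians ran from 15.5 to 21.7. It was used as an alternative. Each of 59305 non-control spots was set, as log2, against its array's 75th percentile; spots marked as outliers were left out and spots of 1 probe averaged. A probe counted as above background on an array if at least 50% of its spots did. Genes were tested with limma 3.58.1 in R 4.3.3 (lmFit and eBayes, 4 group means over all 12 arrays, two-sided, Benjamini-Hochberg over 17596 genes). On simulated data for the FABP4 comparison without palmitic acid, over 17586 genes, 63% of log2 changes of 0.5 and 92% of changes of 1 were recovered. The simulated noise was independent between arrays, with no slide difference. Far more genes were changed than passed in the deposited data, which eases the adjusted threshold. The rates therefore do not give the recovery in the deposited data.

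The genes and lists were chosen with earlier results of these data known; a list of snRNP proteins named Snrnp was added after the gene names of the array and first results were seen. Named genes were every called member, up to 12 per direction, and the 2 with the smallest p in each of the 5 families per comparison. Also described were members with a probe of opposite sign at an unadjusted p under 0.05, and up to 4 called genes per direction of the other splicing genes. Not every named gene is described above for its comparison, and some genes described, such as Prpf8, fall outside these rules. Replicate numbers did not pair the arrays: correlations between same-numbered arrays' deviations ran from -0.08 to 0.17, with 1 of 18 above 0.1. Alternatives covered scaling, background correction, filter, probe choice, slide, replicate block, groups fitted, moderation and each array left out.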

Additional observations from a re-analysis of the deposited data

How the results depend on the processing

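The count of the 61 genes that passed, 2 for palmitic acid without FABP4, was 1 after scaling to the median over tested genes, with slide as a fixed block (Prpf19) and with the replicate block, 0 without scaling between arrays, without a filter on dim probes and with slide as a random block, and 4 with trended and robust moderation. It was 3, with Srsf9 added, after scaling to the percentile over probes above background on all arrays. With averaged probes it stayed at 2, but the genes were Hnrnpul1 and Snrpd3, and with only the groups compared they were Hnrnpul1 and Srsf11. It ran from 0 to 5 with 1 array left out: 0 without control array 1, control array 3 or palmitic acid array 2, 1 without FABP4 array 3, palmitic acid array 1 or palmitic acid array 3, and 5 without FABP4 array 1, when Hnrnpul1, Srsf11 and Srsf9 were added. For FABP4 without palmitic acid, the count of 1 became 0 under quantile or median scaling, the percentile over probes above background on all arrays, no scaling, normexp, no filter, a filter that asked for all 12 arrays, averaging each gene's probes, slide as a random block, the replicate block and only the groups compared, and ran from 0 to 1 with 1 array left out. Prpf38b kept its negative sign there in every setting tried, from -0.38 to -0.62, with adjusted p from 0.00579 to 0.732. For palmitic acid with FABP4 the count ran from 0 to 1 with 1 array left out; for the interaction it was 1 (Prpf19) with slide as a fixed block. No scaling between arrays shifted the median of all genes to 0.17 for palmitic acid without FABP4, -0.05 with FABP4, 0.13 for FABP4 without palmitic acid, -0.09 with it and -0.23 for the interaction; the members' medians were then 0.10, -0.09, 0.12, -0.09 and -0.20. With slide as a fixed block the members' medians were 0.05 for palmitic acid without FABP4, 0.08 for FABP4 without palmitic acid and -0.02 for the interaction. Those of all genes were then 0.04, 0.02 and 0.01. The cause was not tested. Among the named genes, 648 values under other settings kept direction and side of the threshold, 25 lost and 7 gained the threshold, and 30 changed sign, none of them passing in either fit; with 1 array left out 401 kept both, 14 lost and 5 gained the threshold. Without scaling, sign changes were Sf3a3 0.033, Snrpd1 0.031 for palmitic acid without FABP4, Snrpd2 -0.025 for palmitic acid with FABP4, Sf3a3 0.090, Sf3b4 0.082, Snrpa 0.051, Snrpb 0.082, Srsf9 0.013 for FABP4 without palmitic acid, Prpf31 -0.0073, Sf3a3 -0.020, Sf3b5 -0.051, Sfrs18 -0.053, Snrpd2 -0.0001, Srsf7 -0.0016 for FABP4 with palmitic acid and Hnrnpl -0.13, Hnrnpul1 -0.099, Prpf31 -0.099, Sf3a3 -0.11, Sf3b5 -0.20, Sfrs18 -0.039, Snrpd2 -0.12, Snrpd3 -0.081, Srsf9 -0.099 for the interaction. With quantile normalization it was Snrpd2 -0.028 for palmitic acid with FABP4. With averaged probes they were Sf3b4 -0.033 for palmitic acid without FABP4 and Hnrnpa0 0.036, Sfrs18 -0.092 for palmitic acid with FABP4. With slide as a fixed block they were Prpf18 0.035, Srsf11 0.13 for palmitic acid without FABP4 and Snrpa 0.023 for FABP4 without palmitic acid. The replicate numbers give no pairing of arrays, and the replicate block moved the counts of calls from 2 to 1 for palmitic acid without FABP4, from 1 to 0 for FABP4 without palmitic acid, and no other. The second slide alone could not give palmitic acid or FABP4 against the controls, or the interaction, and the fit of only the groups compared was not run for the interaction. The 3 arrays per group and the slide layout limit all single-gene calls.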
